A study of Homo sapiens with 6 samples.

Results

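NEAT1 and LUCAT1 are long non-coding RNAs (lncRNAs) of the cellular stress response, and their transcripts were compared between a lung adenocarcinoma line and a normal lung epithelial line. The deposited table was searched for Ensembl transcripts whose symbol, without its isoform number, was NEAT1 or LUCAT1. This found 3 of 1437 transcripts and 2 of 602 named genes, namely NEAT1-201, LUCAT1-237 and LUCAT1-210. A549, the adenocarcinoma line, was grown in DMEM, and HBE, which the labels also spell HEB, in RPMI-1640, so the medium differed with the line. Both media held fetal bovine serum, penicillin and streptomycin. Each line had 3 samples of whole-transcriptome RNA sequencing of total RNA, numbered 1 to 3. Nothing in the labels says that these came from separate cultures, so the p-values measure the spread between samples, which may be technical. Each line is a single culture lineage and stands for no other tumour or airway donor.

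NEAT1 is the architectural RNA of paraspeckles, nuclear bodies that hold back certain proteins and edited RNAs. It is made as a short polyadenylated form and as a long form that builds the paraspeckle. It is known to be induced by p53, hypoxia and proteotoxic stress. LUCAT1 was first described as a transcript induced by cigarette smoke in airway epithelial cells and raised in lung cancer. NRF2, the transcription factor of the oxidative stress response, is known to act upstream of it, and in immune cells it restrains interferon responses. A549 cells carry a mutation of KEAP1, the protein that keeps NRF2 low. Protein-coding genes, among them NRF2 targets and paraspeckle proteins, were not analysed here.

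The 3 transcripts are spliced isoforms of larger sets, and the sequences across chosen splice junctions are shown because they set the LUCAT1 pair apart from each other, though each also occurs in other isoforms. NEAT1-201 (ENST00000499732, chr11:65422774-65426457, plus strand, GRCh38) has 2 exons and 3441 bases, with a G and C content of 47.6%. It covers the start of the gene, whereas the annotated long form NEAT1-202 reaches 22743 bases and was outside the table. The table held no other NEAT1 isoform, so the levels of NEAT1-201 cover only part of the gene's annotated isoforms. LUCAT1-237 (ENST00000649702, chr5:91301904-91314402, minus strand) has 5 exons and 1972 bases. LUCAT1-210 (ENST00000648031, chr5:91310627-91314404, minus strand) has 5 exons and 1260 bases. The annotated transcripts of the table had a median of 2 exons and 1573 bases. The last 25 bases of an exon are given below in lower case and the first 25 of the next exon in capitals, 5′ to 3′ along the RNA, as GENCODE release 29 has them.
NEAT1-201 exon 1 to exon 2: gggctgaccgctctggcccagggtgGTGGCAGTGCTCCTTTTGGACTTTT
LUCAT1-237 exon 3 to exon 4: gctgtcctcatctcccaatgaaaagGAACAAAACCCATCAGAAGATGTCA
LUCAT1-210 exon 3 to exon 4: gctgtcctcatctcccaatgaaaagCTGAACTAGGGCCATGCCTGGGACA
The LUCAT1 transcripts differ in the length of exon 1, whose 323 bases in LUCAT1-237 lie within the 443 of LUCAT1-210, and part again after exon 3. There LUCAT1-237 crosses an intron of 9106 bases (chr5:91303972-91313077) and LUCAT1-210 one of 664 bases (chr5:91312414-91313077).

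**Figure D1:**
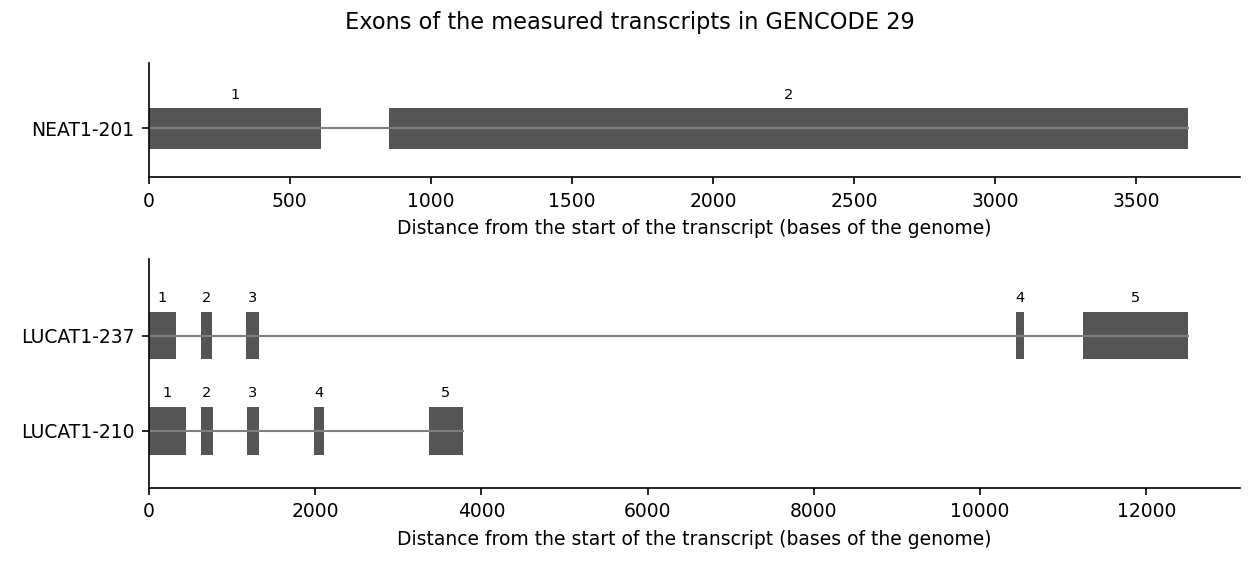
Exons (boxes, numbered) and introns (lines) of NEAT1-201, LUCAT1-237 and LUCAT1-210, drawn to scale against the distance from each transcript's start in bases of the genome, with a separate axis for each gene. LUCAT1-237 and LUCAT1-210 share exons 2 and 3 and differ in the length of exon 1 and after exon 3.

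GENCODE lists 8 isoforms of NEAT1 and 55 of LUCAT1, so the counts of 1 isoform depend on how StringTie divided the reads. Other isoforms of the gene cover 99.3% of the bases of NEAT1-201, 99.65% of LUCAT1-237 and 97.9% of LUCAT1-210. The intron of NEAT1-201 (chr11:65423384-65423626) recurs in 2 other isoforms, NEAT1-204 and NEAT1-208. The long intron of LUCAT1-237 recurs in 1 other isoform, LUCAT1-205, and the intron of 664 bases of LUCAT1-210 in 8 of 54. The first intron of LUCAT1-210 recurs in 2, LUCAT1-223 and LUCAT1-241. The LUCAT1 pair shares 615 bases, which are 31.2% of LUCAT1-237 and 48.8% of LUCAT1-210. None of the 3 transcripts overlaps an exon of a protein-coding gene. In both LUCAT1 transcripts 136 bases are nearly identical to transcripts of 7 other genes, and in NEAT1-201 the similar stretches belong to 3 RNA family entries inside NEAT1 itself.

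Both LUCAT1 transcripts start at the RefSeq start of the gene or 2 bases before it, so they share a promoter, which is shown because the pair differed between the lines in the same direction. The window holds 250 bases before the start and 50 after it, on the minus strand (chr5:91314353-91314652, RefSeq, GRCh38.p14). Capitals mark a match to the core of the antioxidant response element, the site bound by NRF2 with small MAF proteins.
LUCAT1 promoter: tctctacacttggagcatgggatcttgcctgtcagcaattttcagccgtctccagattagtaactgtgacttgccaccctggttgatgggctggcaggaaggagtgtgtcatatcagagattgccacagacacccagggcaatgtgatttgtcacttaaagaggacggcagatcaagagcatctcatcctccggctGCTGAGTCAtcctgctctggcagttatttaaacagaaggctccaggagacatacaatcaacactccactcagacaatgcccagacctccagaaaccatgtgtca
The element was searched as TGACNNNGC on both strands, N being any base. The match lies on the opposite strand at positions -54 to -46, counting the start base as 0, and 13.35% of 35116 RefSeq promoters of the same length hold at least 1. The same capitals contain the AP-1 site TGANTCA at positions -52 to -46, a motif in 7.71% of promoters. The hypoxia letters ACGTG and GCGTG, searched on both strands, are not in this window and occur in 21.4% and 36.5% of promoters. A match describes the letters and shows no binding. NEAT1 was not matched in the promoter table, so 1 of the 2 genes has a window.

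NEAT1-201 was higher in A549, where every sample lay above every HBE sample. Its level in CPM, counts scaled to the size of the library, was 3.32, 1.61 and 4.25 in A549 replicates 1, 2 and 3, from 186, 89 and 245 estimated counts. HBE replicates 1, 2 and 3 had 0, 0.193 and 0 CPM, from 0, 10 and 0 counts. A549 replicate 2 was the low sample of its line, and HBE replicate 2 held all reads of the other. The means were 3.06 ± 1.34 CPM in A549 and 0.0643 ± 0.111 CPM in HBE (SD, n = 3 each), a 47.6-fold difference. The log2 fold change was 5.53 (SE 0.96), with an adjusted p of 1.96e-05 by edgeR's quasi-likelihood test with Benjamini-Hochberg adjustment over all 1437 transcripts. The HBE mean rests on replicate 2, and without it NEAT1-201 had no count in HBE and was at least 108-fold higher in A549, set against 3 counts over the remaining HBE samples. Leaving out HBE replicate 1 instead gave a log2 fold change of 4.94. Within HBE replicate 1 or 3 alone, 3 counts correspond to 0.0534 and 0.0608 CPM. The bound spreads 3 counts over both samples together, which is a lower level, and it covers counting error only.

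In 2 of 3 A549 samples LUCAT1-237 was above every HBE sample by a wide margin, and in the other it stood near HBE replicate 2. It had 0.947, 0.0721 and 0.971 CPM in A549 replicates 1, 2 and 3, from 53, 4 and 56 counts. HBE replicates 1, 2 and 3 had 0, 0.0772 and 0 CPM, from 0, 4 and 0 counts. A549 replicate 2 thus stood at the level of HBE replicate 2, and the lines overlapped in counts and CPM. The deposited FPKM, fragments scaled to transcript length and library size, was 0.0362 in A549 replicate 2 and 0.0297 in HBE replicate 2. These equal 3.96 and 3.04 fragments before both were rounded up to 4. In FPKM every A549 sample lay above every HBE sample, so the overlap rests on this rounding. The mean was 0.663 ± 0.512 CPM in A549 and 0.0257 ± 0.0445 CPM in HBE (SD, n = 3 each), with a log2 fold change of 4.58 (SE 1.17) and an adjusted p of 0.000685 by the same edgeR test. Without HBE replicate 2 the other HBE samples had no count, and the difference was at least 23.5-fold.

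LUCAT1-210 was detected in each A549 sample and in no HBE sample. It had 0.375, 0.144 and 0.260 CPM in A549 replicates 1, 2 and 3, from 21, 8 and 15 counts, against no count in HBE replicates 1 to 3. The lines did not overlap, and A549 replicate 2 was again the lowest of its line. The mean was 0.260 ± 0.115 CPM in A549 (SD, n = 3), at least 13.7-fold higher than in HBE, set against 3 counts over its samples. The adjusted p was 6.43e-05 by the same edgeR test. Without HBE replicate 1 the bound was 8.78-fold, since a smaller HBE depth raises the level that 3 counts stand for.

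**Figure D2:**
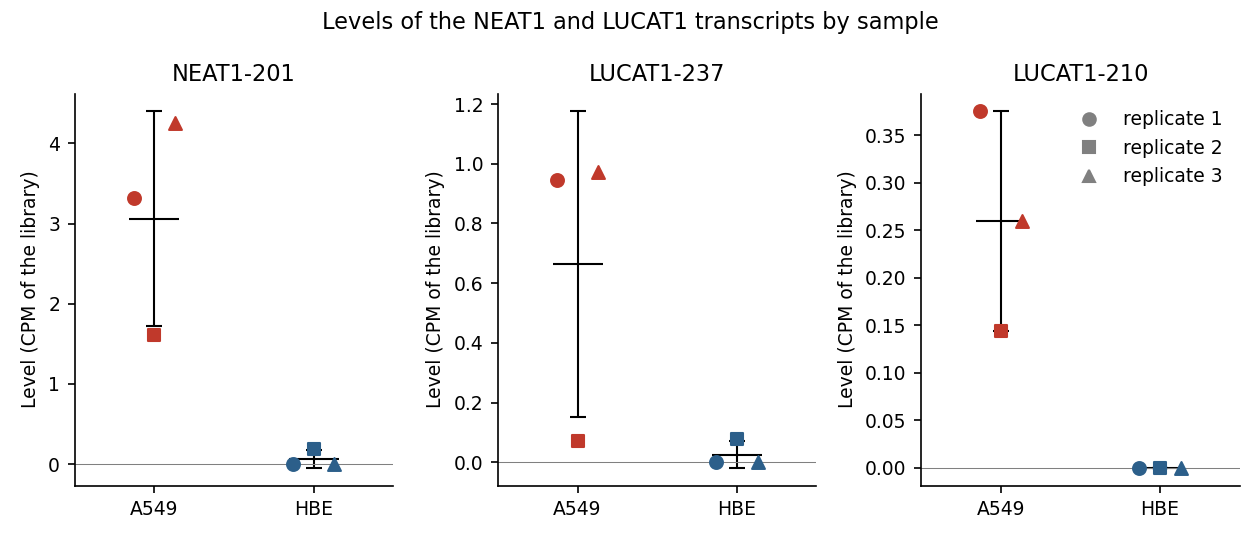
Level (CPM of the library) of NEAT1-201, LUCAT1-237 and LUCAT1-210 in each A549 and HBE sample; symbols give the replicate number, the short line the mean and the bar 1 SD over 3 samples. A549 replicate 2 is the lowest A549 sample in each panel, and LUCAT1-237 overlaps between the lines there, at 0.0721 CPM in A549 and 0.0772 CPM in HBE.

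All 3 transcripts passed the threshold of 0.05 in the direction of A549, against a background of 47.6% of all transcripts of the table. By counts, the lines did not overlap for 2 of the 3, NEAT1-201 and LUCAT1-210. Every A549 sample was above every HBE sample for 47.3% of the table. That pattern held for 680 of the 685 transcripts with a positive log2 fold change. LUCAT1-237 was 1 of 5 that overlapped, by a tie of rounded counts. The authors had selected the table for a difference between these same samples, and 99.9% of it passed in either direction, so the calls are a description and no independent evidence. In the authors' deposited table the log2 fold changes of A549 over HBE were 5.42 for NEAT1-201, 4.51 for LUCAT1-237 and 7.09 for LUCAT1-210. The p-values there were 6.04e-05, 0.00243 and 0.00192 in the same order. In a bulk sample, fewer cells that make a transcript and less of it per cell cannot be told apart. Of the 685 transcripts with a positive log2 fold change, 60.0% had no count in HBE, as LUCAT1-210 did. A further 88 had counts in 1 HBE sample only, which was replicate 2 for 47 of them, replicate 3 for 38 and replicate 1 for 3. NEAT1-201 and LUCAT1-237 belong to those 47. Fitted log2 fold changes of LUCAT1-210, and of NEAT1-201 and LUCAT1-237 without HBE replicate 2, have no HBE count behind them and depend on a prior count.

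**Figure D3:**
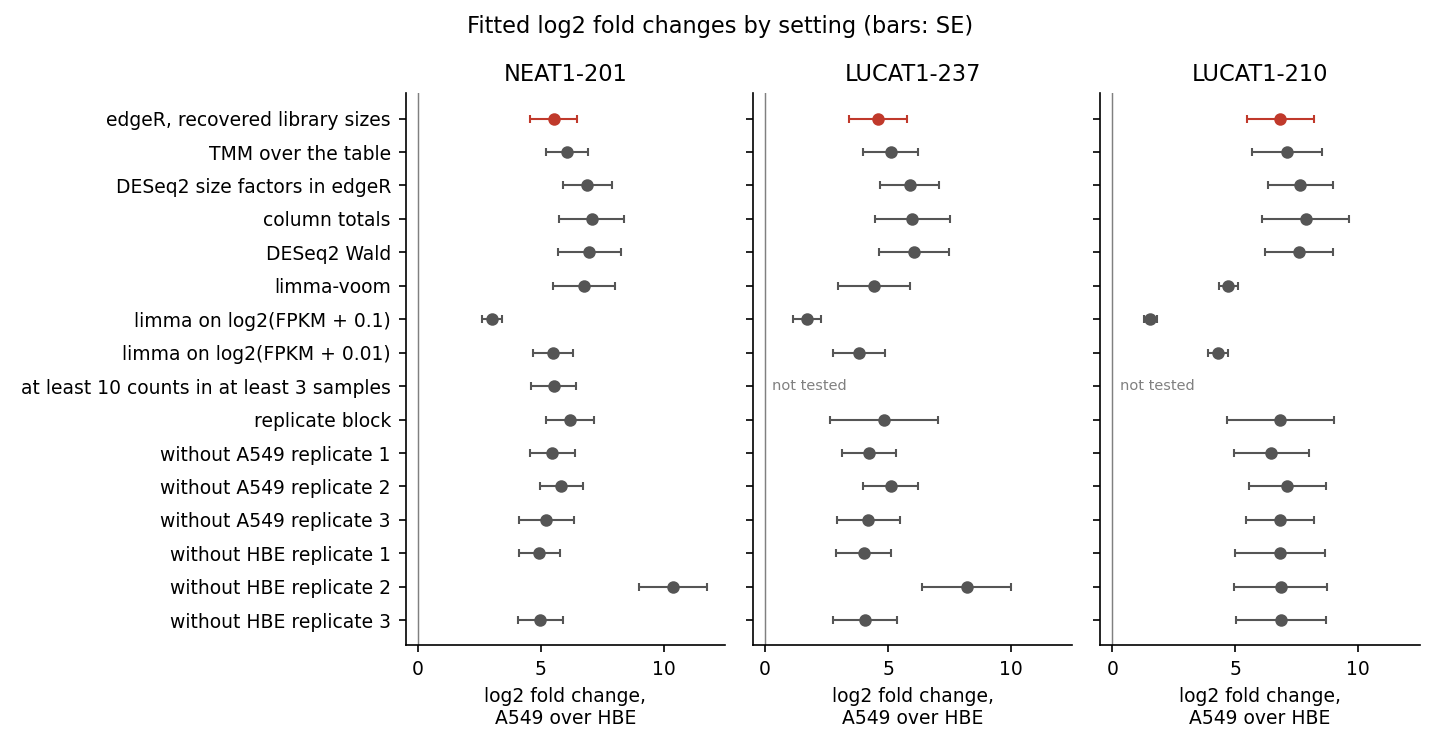
Fitted log2 fold change of A549 over HBE (points, with SE as bars) of NEAT1-201, LUCAT1-237 and LUCAT1-210 by edgeR with recovered library sizes (red) and under each other setting (grey). All points lie above 0, the lowest with limma on log2(FPKM + 0.1), at 1.54 for LUCAT1-210, and the highest without HBE replicate 2, at 10.4 for NEAT1-201.

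Compared per length, NEAT1-201 was the most abundant of the 3 in A549. Its FPKM was 0.962, 0.462 and 1.23 in A549 replicates 1, 2 and 3, a mean of 0.885 ± 0.390 (SD, n = 3). LUCAT1-237 had 0.472, 0.0362 and 0.487 FPKM there and a mean of 0.332 ± 0.256 (SD, n = 3). LUCAT1-210 had 0.296, 0.107 and 0.203 FPKM and a mean of 0.202 ± 0.0946 (SD, n = 3). The ranges of the LUCAT1 pair overlapped, and NEAT1-201 lay above LUCAT1-237 within each A549 sample, although its lowest sample was below the highest of LUCAT1-237. By mean FPKM in A549, NEAT1-201 ranked 174 of the 685 transcripts with a positive log2 fold change, LUCAT1-237 ranked 442 and LUCAT1-210 ranked 572. Low levels were usual in the table, where 75.7% of transcripts averaged less than 1 FPKM in each line.

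Summed over its 2 transcripts of the table, LUCAT1 reached 1.32, 0.216 and 1.23 CPM in A549 replicates 1, 2 and 3. In HBE replicates 1, 2 and 3 the sum was 0, 0.0772 and 0 CPM. The other isoforms among the 55 in GENCODE were outside the table, so the sum covers only part of the gene's annotated isoforms. The sum averaged 0.923 ± 0.614 CPM in A549 and 0.0257 ± 0.0445 CPM in HBE (SD, n = 3 each), a ratio of 35.9, or 53.9 in FPKM. The HBE value rests on 4 counts in replicate 2. Without that sample the ratio was at least 32.7, and with any 1 other sample left out it was 23.9 to 49.6. The mix of these 2 isoforms was uneven between A549 samples. LUCAT1-237 made up 71.6% of the counts of the pair in A549 replicate 1 (exact Clopper-Pearson 95% interval 59.9% to 81.5%) and 78.9% in replicate 3 (67.6% to 87.7%). In A549 replicate 2 it was 4 of 12 counts, or 33.3% (9.92% to 65.1%). The interval of replicate 2 overlapped that of replicate 1 and ended below that of replicate 3. These intervals cover counting error only and treat estimated counts as reads.

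LUCAT1-237 was among the transcripts with the lowest A549 replicate 2 relative to the other A549 samples. Its level there was 0.0752 of the mean of replicates 1 and 3, and 0.876% of the 685 transcripts with a positive log2 fold change had a lower ratio. The ratio was 0.424 for NEAT1-201 and 0.454 for LUCAT1-210, with 11.7% and 13.4% of those transcripts below. The median of all 685 was 0.968, so replicate 2 was not low in general, and 31.2% of them had their lowest A549 level there. Without A549 replicate 2 the log2 fold changes were 5.84 for NEAT1-201 and 5.11 for LUCAT1-237, and LUCAT1-210 was at least 16.6-fold higher.

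**Figure D4:**
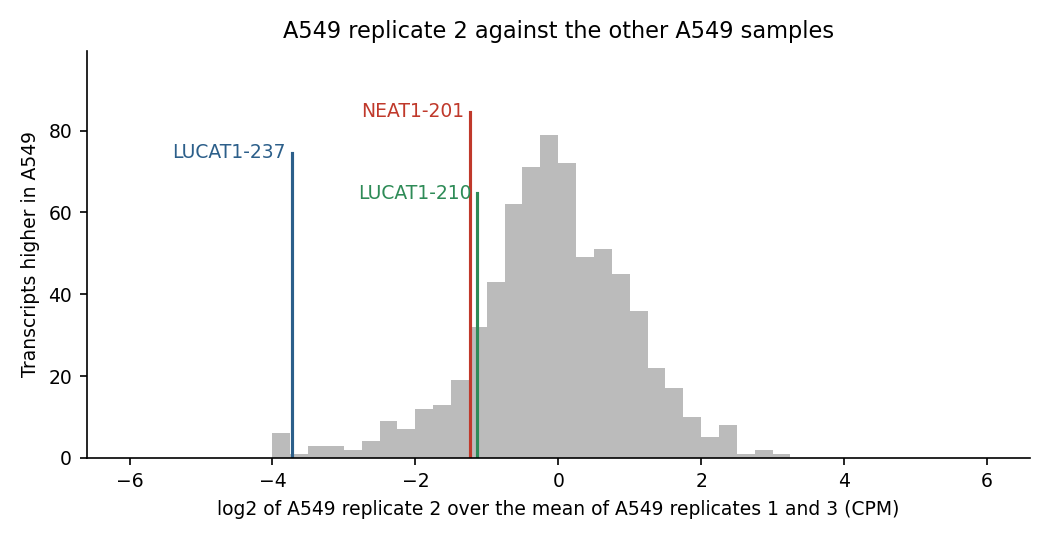
Histogram of the log2 ratio of A549 replicate 2 over the mean of A549 replicates 1 and 3 (CPM) for the 685 transcripts with a positive log2 fold change, with the number of transcripts on the vertical axis. Vertical lines mark NEAT1-201 (ratio 0.424), LUCAT1-210 (0.454) and LUCAT1-237 (0.0752), the last near the low end.

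The transcripts with the most similar pattern over the 6 samples were sought by Pearson's r of log2(CPM + 0.1) among 634 or 635 annotated transcripts of other genes. Closest to NEAT1-201 were the lincRNAs AC007249.2-201 (r = 0.999), AC019257.1-201 (r = 0.995) and LINC02482-202 (r = 0.992). AC007249.2-201 had 19, 11 and 20 counts in A549 replicates 1, 2 and 3, and 0, 3 and 0 in HBE. Closest to LUCAT1-237 were LLPH-DT-201 (r = 0.977), RNF144A-AS1-201 (r = 0.972) and LINC01635-202 (r = 0.953). LLPH-DT-201 had 25, 2 and 38 counts in A549 replicates 1, 2 and 3, and RNF144A-AS1-201 had 49, 4 and 33, with no count of either in HBE. Another isoform of the same gene, RNF144A-AS1-202, shares a stretch of 55 bases with the second exon of LUCAT1-237 at 98.2% identity, and whether reads were divided between them was not tested. Closest to LUCAT1-210 were NSMCE1-DT-201 (r = 0.998), AL139424.3-203 (r = 0.998) and LINC00960-201 (r = 0.996). An r above 0.9 was reached by 144 candidates for NEAT1-201 and 143 for LUCAT1-210, but by 17 for LUCAT1-237. The points share their libraries and the difference between the lines for which the table was selected, and r within a line was not computed.

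Within 1 Mb of NEAT1 on chromosome 11 the table held 3 other annotated transcripts, and within 1 Mb of LUCAT1 it held 0. Of the 3, 2 were higher and 1 lower in A549, against 47.6% and 52.3% of all transcripts of the table. MIR194-2HG-201, of the host gene of the microRNAs miR-192 and miR-194-2, lies 529 kb away. It had 124, 74 and 32 counts in A549 replicates 1, 2 and 3, and 0, 8 and 6 in HBE replicates 1, 2 and 3. Its log2 fold change was 3.88 (SE 0.93, adjusted p = 0.000344 by edgeR), and its lowest A549 sample was replicate 3, unlike that of NEAT1-201. Leaving out HBE replicate 2 gave 4.48, and leaving out HBE replicate 1 gave 3.29. AP001362.2-201, a lincRNA 217.5 kb away, had 130, 144 and 114 counts in A549, and 9, 30 and 9 in HBE, a log2 fold change of 2.90 (SE 0.70, adjusted p = 0.000361 by edgeR). That value was 3.73 with HBE replicate 2 left out. AP001107.9-202, an antisense lncRNA 902 kb away, had no count in A549 and 16, 14 and 14 in HBE, at least 15.8-fold lower in A549. The 3 neighbours did not share 1 direction, and whether the region plays a part was not tested. The neighbouring lncRNA MALAT1 had no annotated transcript in the table.

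Of 40 other lncRNA genes described in hypoxia, oxidative, p53 or inflammatory stress, 8 were in the table with 17 transcripts. Of these 5 were higher and 12 lower in A549, against 47.6% and 52.3% of all transcripts of the table. The median log2 fold change of the list was -2.63, and that of all transcripts was -2.004. Both medians were the same with bounds in place of fitted values. The higher ones were LINC00973-201, GAS5-207, GAS5-213, GAS5-217 and PVT1-213. LINC00973-201 had 43, 87 and 12 counts in A549 and none in HBE, which puts it at least 44.1-fold higher, a bound that was 25.4-fold with A549 replicate 2 left out. GAS5-207, of a snoRNA host that can bind the glucocorticoid receptor, had 192, 45 and 50 counts in A549 and 3, 10 and 15 in HBE, with a log2 fold change of 3.21 (SE 0.81). That value was 2.19 with A549 replicate 1 left out. The calls of PVT1-213 and GAS5-213 were lost without HBE replicate 2 (adjusted p = 0.101 and 0.054 by edgeR), and that of GAS5-213 also without replicate 1 of A549 (0.128) or of HBE (0.0757). Of the 12 lower transcripts, 7 belonged to UCA1, an lncRNA described in hypoxia and in cancer, and had no count in A549. UCA1-223, UCA1-201, UCA1-222, UCA1-217, UCA1-229 and UCA1-213 were at least 148-fold, 93.4-fold, 69.8-fold, 44.4-fold, 29.4-fold and 22.2-fold lower. The bound of UCA1-201 was 49.6-fold without HBE replicate 1, and that of UCA1-213 was 11.2-fold without HBE replicate 2. The other lncRNAs of stress in the table therefore did not share 1 direction with NEAT1-201 and the LUCAT1 pair.

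**Figure D5:**
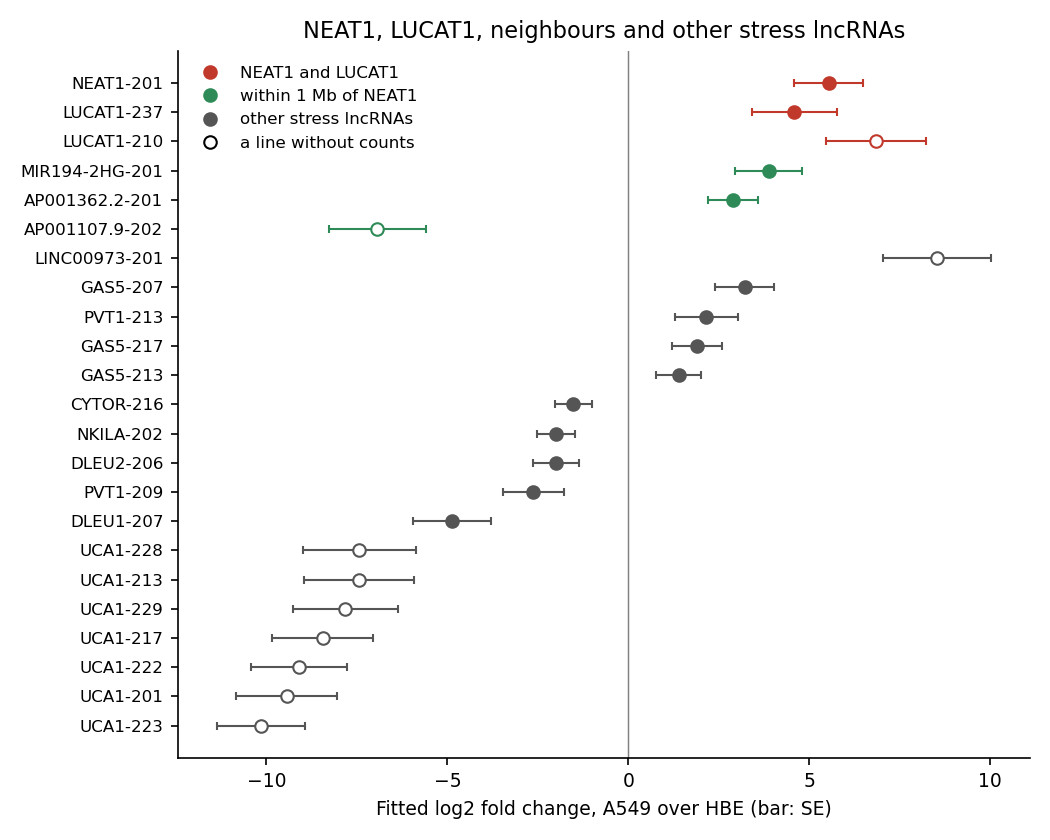
Fitted log2 fold change of A549 over HBE (points, with SE as bars) of NEAT1-201, LUCAT1-237 and LUCAT1-210 (red), of the 3 transcripts within 1 Mb of NEAT1 (green) and of 17 transcripts of other stress lncRNAs (grey). Open points have no count in 1 line, so their fitted value depends on a prior count; 5 grey points lie above 0 and 12 below.

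The lines also differed in lncRNA markers of epithelial identity. The table was selected for a difference between these lines, so a marker found in it differs by that selection. The 3 transcripts of MIR205HG, the airway epithelial marker, summed to 0 CPM in every A549 sample and to 76.2 to 213 CPM in HBE. The 2 of SFTA1P, an alveolar and club cell marker, summed to 0 CPM in A549 and 2.40 to 6.64 CPM in HBE. Isoforms of these genes outside the table were not analysed here. The mesenchymal transcripts of MIR100HG and ZEB1-AS1 summed to 1.43 to 1.89 CPM in A549 and 3.01 to 4.03 CPM in HBE. However, 2 of the 3 were higher in A549, against 47.6% of all transcripts of the table. MIR100HG-231 had 11, 18 and 9 counts in A549 and none in HBE, and MIR100HG-227 had 12, 40 and 5 in A549 and 0, 0 and 1 in HBE. ZEB1-AS1-208, which made up most of the sum, was lower, a call lost with TMM, DESeq2 size factors, column totals and the DESeq2 Wald test. The neural transcripts of MIAT and OLMALINC summed to 3.19 to 4.002 CPM in A549 and 0.836 to 2.65 CPM in HBE, with opposite directions. OLMALINC-201 was higher in A549 (log2 fold change 2.69, SE 0.61) and MIAT-218 lower (-2.92, SE 0.84), and the call of MIAT-218 was lost with DESeq2 size factors, column totals and the DESeq2 Wald test. The part of cell identity in the levels of NEAT1-201 and the LUCAT1 transcripts was not tested, and the blood and endothelial list had 0 transcripts in the table. Library sizes were 55443876 to 57664347 in A549 and 49376413 to 56218149 in HBE, and 0.459% to 1.06% of the A549 libraries and 0.991% to 2.48% of the HBE libraries lay in the table.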

How the data were processed

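RNA of 3 A549 and 3 HBE samples was sequenced. Per the submitters' processing notes, HISAT2, StringTie, DESeq2 and the build GRCh38 were used; versions are not given in the sources used here, nor is the use of strand. For the transcripts they had selected, the authors deposited each sample's estimated count and FPKM. A p-value and a log2 fold change, A549 over HBE, were deposited beside them. Whether that p-value was adjusted is not given. Per-sample columns left unused numbered 0.

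The sums of the table were 0.459% to 2.48% of the libraries, so library sizes were solved from the deposited values. With these sizes, FPKM, length and size multiplied and rounded up gave the deposited estimated count to within 1 for 100% of nonzero annotated values. One count was worth 0.0173 to 0.0203 CPM.

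Counts of all 1437 transcripts, whole as deposited, entered the quasi-likelihood test of edgeR 4.0.16 (R 4.3.3) with Benjamini-Hochberg adjustment at 0.05, without filter or block, and the fit was tested on simulated data. An SE of edgeR is the log2 fold change over the square root of F, and SEs of limma and DESeq2 came from their own fits. Where a line had no count, folds are bounds against 3 counts over its samples. Alternatives used DESeq2 1.42.0 and limma 3.58.1. Transcript structures came from GENCODE 29 and near-identical stretches of at least 50 bases at 97% identity from BLAST+ 2.17.0. Members and lists were chosen with earlier results of these data known. Named transcripts were the members, all neighbours within 1 Mb, up to 6 of the stress list per direction by adjusted p, and the 3 most similar patterns among transcripts with a mean of at least 10 counts in 1 line. Further junction sequences are not reported here.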

Additional observations from a re-analysis of the deposited data

How the results depend on the processing

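All 3 transcripts of NEAT1 and LUCAT1 kept their direction and passed the threshold in every setting that tested them. Requiring 10 counts or more in 3 samples or more left out both LUCAT1 transcripts; NEAT1-201 stayed at a log2 fold change of 5.53. This filter left 941 calls of 1435, and 390 of 684 higher in A549, because 943 transcripts were tested. With TMM, DESeq2 size factors, column totals and the DESeq2 Wald test, the log2 fold changes were 6.05, 6.89, 7.08 and 6.97 for NEAT1-201, 5.10, 5.88, 5.99 and 6.06 for LUCAT1-237, and 7.12, 7.64, 7.86 and 7.58 for LUCAT1-210. These settings shifted the median of all transcripts by 0.28, 0.86, 1.10 and 1.40. The DESeq2 Wald test also used DESeq2 size factors, so its larger shift is not one of scaling alone. With limma on log2(FPKM + 0.1), where the added value dominates at these levels, they were 3.01, 1.71 and 1.54, and with 0.01 they were 5.50, 3.82 and 4.30. Limma-voom gave 6.76, 4.43 and 4.72. Leaving out 1 sample gave 4.94 to 10.4 for NEAT1-201, 4.01 to 8.19 for LUCAT1-237 and 6.47 to 7.12 for LUCAT1-210, and 1408 to 1431 calls. The values of LUCAT1-210, and the highest of the other ranges, are fitted against no HBE count and depend on a prior count. Without HBE replicate 2, their only HBE sample with counts, the bounds were 108-fold for NEAT1-201 and 23.5-fold for LUCAT1-237. With any 1 sample left out they were 8.78-fold to 16.6-fold for LUCAT1-210. Deviations from the line means correlated at 0.011, -0.0084 and -0.0495 between same-numbered samples. Many transcripts had no count in a whole line and so no deviation there. The check therefore cannot decide whether the replicate numbers pair the samples. With the replicate block the log2 fold changes were 6.20, 4.84 and 6.82, with a largest adjusted p of 0.0313 by edgeR, for LUCAT1-237, and 1342 calls. The higher calls of the stress list were 3 with the block and 3 to 5 with a sample left out, and DESeq2 size factors left 8 of its 12 lower calls. Of the values for single transcripts of the lists, neighbours and similar patterns, 547 kept their side of the threshold and 29 lost their call. Counts of at most 56 limit what can be said of LUCAT1.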
